A study of Homo sapiens with 6 samples.

Results

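FBXO11 is the gene described here, through the 8 short hairpin RNAs (shRNAs, called hairpins) that target it in a pool of 7293 hairpins seen against 912 genes of chromatin regulation. The hairpins were found by the gene symbol in all 6 libraries, and every one of the 8 was counted in every library. FBXO11 was chosen by its place near the upper end of the comparison of azacitidine (AZA) with untreated cells in an earlier pass over these data. Its values in that comparison are therefore given as a description and carry no test. No hairpin of FBXO11 was left out by the filter on low counts.

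FBXO11 encodes an F-box protein. F-box proteins are the exchangeable subunits of SCF ubiquitin ligases, in which SKP1 and CUL1 form the scaffold and the F-box protein picks the substrate that is to be marked for degradation. FBXO11 is best known for the degradation of BCL6, the repressor of germinal centre B cells, and it is inactivated in part of B-cell lymphomas. RefSeq lists PRMT9 and UBR6 among its older names, since it was once described as an arginine methyltransferase and carries a UBR-type zinc finger.

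The cells were of the line SKK-1, which comes from a human acute myeloid leukemia that followed a myelodysplastic syndrome. They were transduced with the lentiviral Epi9 pool (7296 hairpins by design), which all 6 samples carry, in 3 cultures that were selected with puromycin. One portion of each culture stayed untreated and the other received 0.25 µM AZA, a cytidine analogue that inhibits DNA methylation, every 2 days until the genomic DNA was prepared (14 days). Counts stand for the cells that still carried a hairpin by then, so a hairpin that is higher under AZA was carried by a larger share of the treated cells. Libraries held 12292575 to 22587662 counts, with 1229 to 2511 for the median hairpin. Over the whole pool, log2 CPM correlated at 0.384 to 0.398 between untreated libraries and at 0.520 to 0.545 between AZA libraries (Pearson's r across hairpins, which are not independent replicates), where CPM is a count scaled to the same total in every library. The data hold neither FBXO11 mRNA nor protein, so the strength of each knockdown, and the myeloid markers of SKK-1, could not be checked, and cells before treatment were not analysed here.

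The FBXO11 gene lies on chromosome 2, from 47789316 to 47906498 on the minus strand (GENCODE release 44, GRCh38). The count files hold no coordinates. Each hairpin is named by the gene and a number, for FBXO11 from 248 to 2645. The guide sequences of FBXO11 were not analysed here, but what the numbers mean was checked on 1987 guides against genes from the first part of the alphabet. In 270 of 270 pairs of hairpins of 1 gene whose numbers differed by 1 to 10, the 22-base guides overlapped with exactly that shift, the first base of the overlap aside. The number therefore counts bases along the target. A pair against BCL6, the best known substrate of FBXO11, shows the relation, with the 18 shared bases in capitals and each guide written 5′ to 3′ as the strand antisense to the mRNA.
BCL6.2470: TATATATTTACAACTCTGccat
BCL6.2474: tattTATATATTTACAACTCTG
By the same rule FBXO11.1916 and FBXO11.1917 would share 21 bases of target and are not independent of each other, while the other 6 lie apart.

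Taken as a sum, the hairpins against FBXO11 took up about 2 parts of the treated pool for each part of the untreated pool. Their summed abundance was 952, 889 and 797 CPM in untreated replicates 1, 2 and 3. Under AZA it was 1985, 1849 and 1997 CPM. All 3 treated libraries were above all 3 untreated ones, and the replicates of each group lay close together. The mean was 879 ± 77.9 CPM untreated and 1944 ± 82.5 CPM under AZA (SD, n = 3 each), a ratio of 2.21, while the median gene had a ratio of 1.01. In the order of summed abundance FBXO11 stood at place 583 of 912 genes in untreated cells and at place 28 under AZA, and its ratio was the seventh highest. Within replicate numbers, which pair the portions of 1 culture, the sum was higher under AZA by 2.09-, 2.08- and 2.51-fold.

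**Figure D1:**
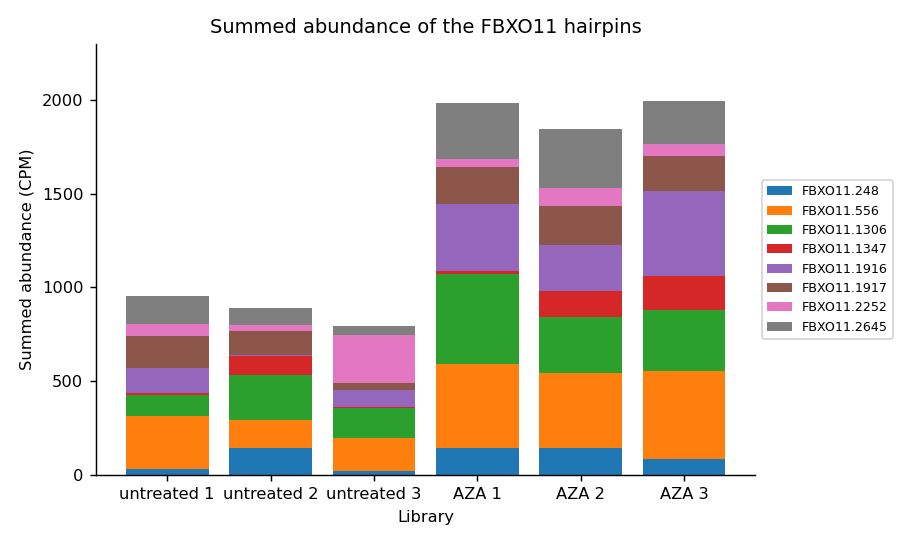
Summed abundance of the 8 FBXO11 hairpins in each library (y axis, CPM on the library total, from 0), with each hairpin as a coloured segment. The 3 AZA libraries reach 1849 to 1997 CPM and the 3 untreated libraries 797 to 952 CPM, and the share of single hairpins varies more between the untreated libraries.

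The higher sum was spread over several hairpins. Of the 8, 7 had a positive log2 fold change, 6 were higher under AZA in 3 of 3 pairs, and in 5 the lowest AZA library lay above the highest untreated one. Over all 7262 tested hairpins, 45.1% had a positive log2 fold change, 19% were higher in 3 of 3 pairs and 9.17% had groups that did not overlap in this direction. Since the gene was chosen on this contrast, nothing is read from the difference. In 4 genes of the pool, FBXO11 included, 5 or more hairpins had groups apart on the higher side, and in 9 genes 6 or more hairpins were higher in all pairs.

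FBXO11.556 was the most abundant of the hairpins on average, with 284, 151 and 177 CPM in untreated replicates 1, 2 and 3 and 446, 402 and 472 CPM under AZA. The groups did not overlap, and the treated libraries placed this hairpin within the top 3% of the pool (percentiles 97.2 to 98.2). FBXO11.1306 had 111, 240 and 157 CPM untreated and 478, 302 and 325 CPM under AZA. Here too every treated library was above every untreated one, most clearly in replicate 1. FBXO11.2645, the hairpin with the highest number, had 145, 89.5 and 51.4 CPM untreated and 297, 316 and 231 CPM under AZA. Its ratios within pairs, with a pseudocount of 1 CPM added to both values, were 2.05, 3.50 and 4.43. For these 3 hairpins the edgeR log2 fold changes were 0.95 ± 0.35, 0.95 ± 0.42 and 1.41 ± 0.51 (SE, n = 3 each).

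The hairpins that share a target site, FBXO11.1916 and FBXO11.1917, were both higher under AZA, but by different amounts. FBXO11.1916 had 134, 6.71 and 92.1 CPM untreated and 359, 246 and 455 CPM under AZA. Untreated replicate 2 was far below its fellows, with 121 counts. With a pseudocount of 1 CPM the ratio of that pair was 32.0, against 2.66 and 4.89 in the others. FBXO11.1917 had 170, 127 and 37.5 CPM untreated and 198, 205 and 189 CPM under AZA. The treated values of this hairpin were nearly equal, with a highest over lowest ratio of 1.09, while the untreated ones spanned 4.54-fold. The edgeR log2 fold changes were 2.04 ± 0.79 and 0.66 ± 0.60 (SE). They differed by 1.38, and 57 of the 350 tested pairs of the pool whose numbers differ by 1 had a larger difference, the median being 0.63. Without untreated replicate 2 the log2 fold change of FBXO11.1916 was 1.50, and without untreated replicate 3 that of FBXO11.1917 was 0.25.

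The next hairpins were higher on average but with groups that overlapped. FBXO11.1347 had 12.2, 102 and 4.28 CPM untreated and 19.6, 139 and 182 CPM under AZA. It was higher in all 3 pairs, by 1.56-, 1.36- and 34.8-fold (pseudocount 1 CPM), so that its fold change rests mostly on replicate 3. The edgeR log2 fold change of 1.34 ± 1.20 (SE) ranged from 0.81 without untreated replicate 3 to 3.65 without untreated replicate 2. FBXO11.248, the hairpin with the lowest number, had 30.3, 142 and 21.6 CPM untreated and 145, 141 and 82.0 CPM under AZA. In replicate 2 it was level, with a ratio of 0.992 (pseudocount 1 CPM), and in the others it was higher by 4.68- and 3.67-fold. Its log2 fold change was 0.74 ± 0.85 (SE), and it was 0.39, 2.10 and 0.33 without untreated replicate 1, 2 or 3.

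FBXO11.2252 was the exception. It had 66.2, 29.7 and 255 CPM untreated and 42.0, 99.3 and 62.0 CPM under AZA, so that it was lower in replicates 1 and 3 and higher in replicate 2. The edgeR log2 fold change was -0.95 ± 0.87 (SE). The direction rests on untreated replicate 3, in which this was the most abundant FBXO11 hairpin with 32.0% of the counts of the gene, and without that library the log2 fold change was 0.35. The lowest of the 48 counts, 84 for FBXO11.1347 in untreated replicate 3, has an exact 95% Poisson interval of 67.0 to 104 counts. Such intervals cover counting error only and take no account of PCR duplicates or of the differences between cultures.

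**Figure D2:**
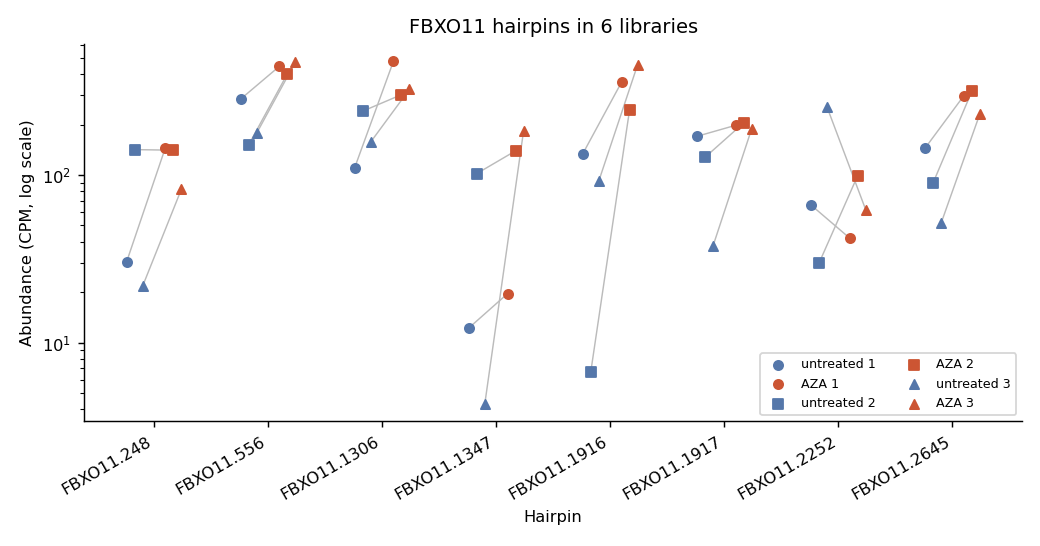
Abundance of each FBXO11 hairpin (y axis, CPM on a log scale) in the 3 untreated (blue) and 3 AZA (red) libraries, with lines that join the portions of 1 culture and a marker shape per replicate number. In 5 hairpins all red points lie above all blue ones, and FBXO11.2252 is lower under AZA in replicates 1 and 3.

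Replicates lay closer together under AZA than without drug. The SD of log2 CPM over 3 libraries was smaller under AZA for 8 of 8 FBXO11 hairpins, and for 73.1% of all tested hairpins. Its median over the FBXO11 hairpins was 1.31 untreated and 0.40 under AZA, against 0.94 and 0.56 over the pool. FBXO11.1347 was the least reproducible in both groups (2.34 and 1.75). Untreated, 3 different hairpins led the gene in the 3 libraries, with 27.1% to 32.0% of its counts. Under AZA FBXO11.556 led in replicates 2 and 3 and FBXO11.1306 in replicate 1, with 21.7% to 24.1%.

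For the gene as a whole the mean log2 fold change was 0.89 ± 0.87 (SD over 8 hairpins) and the median 0.95. The mean stood at place 23 and the median at place 11 of 912 genes, whose means had a median of -0.052 and an SD of 0.39. The place of the mean moved to 33 with no count filter, to 64 without untreated replicate 1 and to 66 without untreated replicate 3. The neighbours in this order were HNRNPA1, an RNA-binding protein of splicing, with 0.91 ± 0.69 above it and FTSJ3, a ribosome biogenesis factor, with 0.87 ± 1.82 below it (SD over hairpins), and these means differ from that of FBXO11 by far less than the spread between hairpins. Leaving out any 1 of the 8 hairpins gave means of 0.73 (without FBXO11.1916) to 1.15 (without FBXO11.2252). With FBXO11.1916 and FBXO11.1917 counted as 1 hairpin the mean was 0.83.

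By replicate number, the mean log2 ratio of CPM (pseudocount 1) over the 8 hairpins was 0.95 ± 0.96, 1.42 ± 1.59 and 1.77 ± 1.96 (SD over hairpins) in pairs 1, 2 and 3. In each pair 7 of 8 hairpins were higher, but not always the same ones, since FBXO11.2252 was lower in pairs 1 and 3 and FBXO11.248 in pair 2. The place of the gene among 912 was 125, 80 and 40 in the single pairs. These places are lower than place 23 of the unpaired edgeR fit of all 6 libraries. That fit is another measure with another scaling, so the difference is not one of library number alone. With the replicate number as a block the edgeR mean was 1.19, at place 63. The median of all hairpins was then 0.080, against -0.096 in the unpaired fit.

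None of the FBXO11 hairpins was called by the edgeR quasi-likelihood test at an adjusted p of 0.05 (0 of 8). In the pool 0.0689% of hairpins were called, of which 4 fell and 1 rose. At an unadjusted p under 0.05, 4 FBXO11 hairpins were higher (FBXO11.556, FBXO11.1306, FBXO11.1916 and FBXO11.2645), against 1.9% of the pool on the higher side. Over the pool 5.62% of hairpins had such a p in either direction and 3.72% on the lower side. DESeq2 on the same counts called 0 of the 8 and 1.86% of the pool, with 0.812% higher and 1.05% lower. The gene was chosen on this contrast, so its counts and p-values here are a description and no test of FBXO11.

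**Figure D3:**
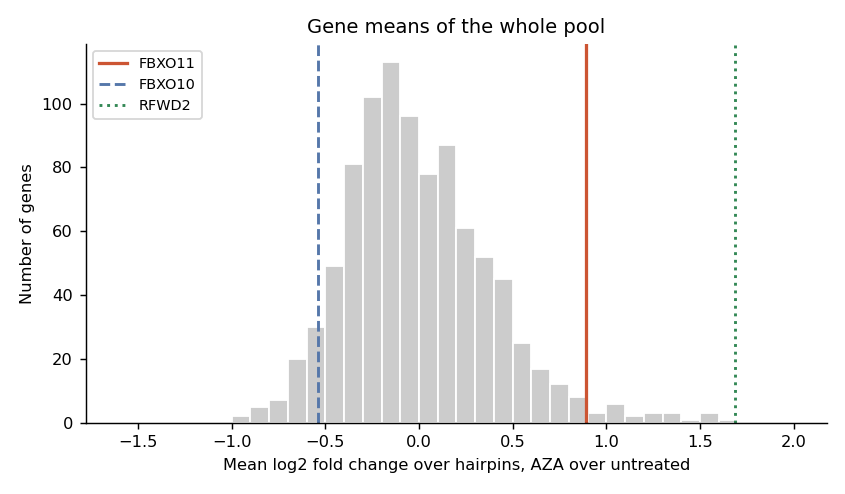
Distribution of the mean log2 fold change over hairpins (x axis, AZA over untreated) for 912 genes (y axis, number of genes), with lines at FBXO11 (0.89), its paralogue FBXO10 (-0.54) and RFWD2 (1.69). FBXO11 lies in the upper tail at place 23, FBXO10 on the lower side and RFWD2 at the upper end.

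Other genes of the same machinery were set beside FBXO11. Among 7 other F-box genes of the pool, 4 had a positive and 3 a negative mean, and in the paired fit (replicate block) 5 were positive. In this list 0 of 56 hairpins were called (edgeR, lowest adjusted p = 0.751), 3 had an unadjusted p under 0.05 (5.62% of the pool did) and DESeq2 called 0. The median log2 fold change of the list was -0.11, close to the -0.096 of all hairpins, and 0.11 in the paired fit, where that of all hairpins was 0.080. FBXO10, the F-box protein most like FBXO11, lay on the other side of the distribution. Its sum was 1038 ± 189 CPM untreated and 793 ± 32.8 CPM under AZA (SD, n = 3 each), 2 of 8 hairpins had a positive log2 fold change, and the mean was -0.54 ± 0.68 (SD over hairpins). FBXO44, an F-box protein of the FBG family, had the highest mean of the list (0.71 ± 1.45, 5 of 8 positive). Its mean was below that of FBXO11 here but above it in the paired fit (1.45 against 1.19), without untreated replicate 1 (1.33 against 0.94) and with a filter of CPM above 10 (1.00 against 0.89).

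The enzymes that work with SCF ligases had positive means. CDC34, the E2 that extends ubiquitin chains on SCF substrates, had 7 of 8 hairpins with a positive log2 fold change (mean 0.40 ± 0.40, SD over hairpins). UBE2M, the E2 that attaches NEDD8 to cullins and so activates them, had 4 of 8 (0.57 ± 1.71). For CDC34 0 of 8 hairpins had groups apart on the higher side (9.17% of the pool). Higher in all pairs was 1 of 8 (19% of the pool). UBE2M.809 had the highest log2 fold change of the UBE2M hairpins (3.99), from 2.85, 6.32 and 0.102 CPM untreated. The summed ratios were 1.51 for CDC34 and 1.09 for UBE2M, against 1.01 for the median gene. The UBE2M mean was 0.21 without AZA replicate 1 and 0.92 with the replicate block. The median of these 16 hairpins was 0.42, against -0.096 for all hairpins. It was 0.15 without untreated replicate 3 and 0.96 with the replicate block (0.080 for all hairpins). Of the 16, 0 were called by edgeR (lowest adjusted p = 0.849, 0.0689% of the pool called) and 0 by DESeq2 (1.86%). At an unadjusted p under 0.05 in edgeR there were 2, of which 1 was higher. In the pool 5.62% had such a p in either direction and 1.9% on the higher side.

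For proteins described as substrates of FBXO11 the values lay around those of the pool. BCL6 had 3 of 8 hairpins with a positive log2 fold change (mean -0.16 ± 0.52, SD over hairpins), and its sum was 1696 ± 168 CPM untreated and 1662 ± 266 CPM under AZA (SD, n = 3 each). The printed pair, BCL6.2470 and BCL6.2474, had log2 fold changes of -0.46 and -0.27. BAHD1, a heterochromatin protein, had the highest mean (0.40 ± 0.82), and PRDM1, the repressor BLIMP1, had 3 of 8 positive. Of 24 hairpins 0 were called by edgeR (lowest adjusted p = 0.898) or DESeq2, and 0 had an unadjusted p under 0.05 (5.62% of the pool did).

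The names that FBXO11 once shared led to 2 further comparisons. All 6 genes of UBR-box proteins, which read N-terminal degradation signals, had negative means, the lowest being -0.64 for UBR7. Of 48 hairpins 14 had a positive log2 fold change (29.2%), edgeR called 0 (lowest adjusted p = 0.698), 6 had an unadjusted p under 0.05, all lower, and DESeq2 called 1, UBR7.2853, which fell. In the pool 45.1% were positive, 3.72% had such a p on the lower side and DESeq2 called 1.05% as lower. These signs depend in part on untreated replicate 2, without which UBR4 had a mean of 1.31, and with the replicate block UBR4 had 0.83. PRMT10, the arginine methyltransferase that now bears the name PRMT9, had 4 of 8 positive and a mean of -0.020 ± 0.82 (SD over hairpins), with 0 called by edgeR (lowest adjusted p = 0.898) or DESeq2 and 0 at an unadjusted p under 0.05. The mean was 0.44 in the paired fit (replicate block) and 0.14 on library totals.

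In the unpaired fit 2 genes of the lists had a mean above FBXO11, both from the list of other cullin-RING ligases. In the paired fit CDC34 (1.30) and FBXO44 (1.45) were above it too. RFWD2 (now COP1), a RING ligase that joins CUL4 complexes, had the highest mean of the whole pool in the unpaired fit. It stood at place 8 in the paired fit, at place 4 with no count filter, and at places 3, 15 and 10 without untreated replicate 1, 2 or 3. Its 8 hairpins were all positive, with a mean of 1.69 ± 0.74 (SD over hairpins) and a sum of 769 ± 377 CPM untreated and 2458 ± 23.3 CPM under AZA (SD, n = 3 each). DDB1, the adaptor of CUL4 ligases, was singled out after its values were seen, with 8 of 8 positive, a mean of 1.25 ± 1.16 and place 9. It stood at place 3 in the paired fit and at places 42, 28 and 1 without untreated replicate 1, 2 or 3. Of its 8 hairpins 1 had groups apart on the higher side (9.17% of the pool). Higher in all pairs were 2 of 8 (19% of the pool). Its highest log2 fold change, that of DDB1.681 (3.50), came from 2.36, 17.1 and 5.96 CPM untreated. KEAP1, the CUL3 adaptor that binds NRF2, had the lowest mean (-0.21 ± 0.51). Its sign turned in the paired fit (0.29) and on leaving out untreated replicate 2 (0.15). Of the 40 hairpins of this list 28 had a positive log2 fold change (70.0%, against 45.1% of the pool). The edgeR test called 0 (lowest adjusted p = 0.643), 5 had an unadjusted p under 0.05, all higher (1.9% of the pool), and DESeq2 called 5 as higher (0.812% of the pool), of RFWD2 (4) and DDB1 (1). The list was drawn up with earlier results of these data known, so nothing is read from these shares.

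**Figure D4:**
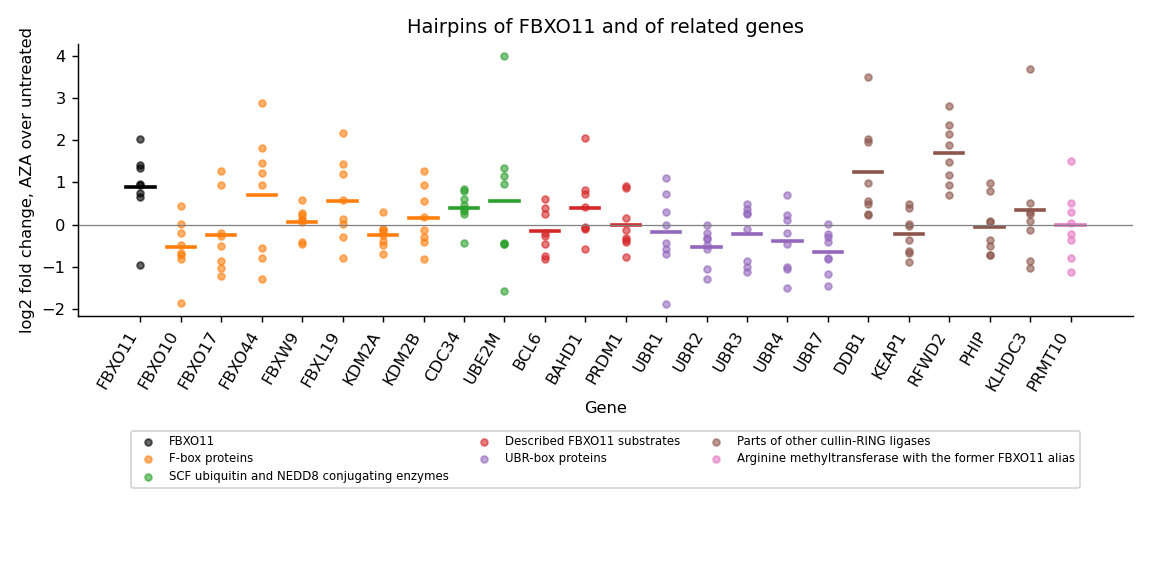
Log2 fold change of each hairpin (points; y axis, AZA over untreated, edgeR) and its mean per gene (bars) for FBXO11 in black and for 23 related genes, coloured by list. FBXO11 has 7 of 8 points above 0, FBXO10 has 2 of 8, and RFWD2 and DDB1 have 8 of 8.

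The profile of FBXO11 over the 6 libraries was compared with those of 903 other genes (8 on the Y chromosome were left out), each profile being the mean log2 CPM of the hairpins. That of FBXO11 is set largely by the step between the groups. Pearson's r takes no account of the size of a step, so genes with a step of similar shape come first. Among the 5 highest Pearson coefficients were those of NAA10, the catalytic subunit of an N-terminal acetyltransferase (r = 0.991), OGT, the O-GlcNAc transferase (0.988), ATXN7L3, which belongs to the deubiquitinating part of SAGA (0.981), and KDM3B, a histone demethylase (0.979). These values describe 6 libraries of 2 groups, and 32 of 903 genes had a coefficient above 0.9. The edgeR gene mean is a measure other than the profile. By it ATXN7L3 (1.08) and NAA10 (1.32) were above FBXO11, and OGT (0.81) and KDM3B (0.74) below it. The order by the step in the profiles can differ. The OGT profile was 6.23, 6.42 and 5.65 untreated and 7.13, 7.48 and 7.58 under AZA (log2 CPM, replicates 1, 2 and 3). That of FBXO11 was 6.45, 6.38 and 5.93 untreated and 7.28, 7.64 and 7.58 under AZA.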

How the data were processed

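The authors amplified guide strands from genomic DNA by PCR, sequenced them and deposited 1 table of raw counts per sample. CASAVA 1.9 and GRCh37 are named in the submitters' processing notes. How reads were matched to hairpins was not given in the sources used here. A hairpin absent from a file was taken as 0. Levels are CPM on the library total. Counts were normalized by TMM and tested per hairpin with edgeR 4.0.16 (R 4.3.3) by the quasi-likelihood test with treatment as the single term. The filter asked for a CPM over 0.5 in 3 or more libraries (7262 hairpins passed and 31 did not), and p-values were adjusted by Benjamini-Hochberg over all of them. Log2 fold changes are AZA over untreated. The SE is the fold change divided by the root of its F statistic. Gene values are means of hairpin values. Log2 CPM used a prior count of 2.

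FBXO11 and the lists were chosen with earlier results of these data known. The genes named are FBXO11 and its neighbours in the order of means, the genes with the highest and the lowest mean of each list, FBXO10, CDC34, BCL6, PRMT10 and the 5 genes with the most similar profile. Of these, 2 are not reported here. PRDM1, UBR4 and DDB1 were named after their values were seen. No set test was run. The symbol of 1 gene, turned into a date in the files, was restored. Replicate numbers pair the samples, since each transduced culture was divided, and deviations from the group means correlated at 0.114 to 0.139 between libraries of the same number (-0.0985 to -0.0243 otherwise). No library was a copy of another, the chi-square of any pair within a group being 438 to 906 times its degrees of freedom. Alternatives were DESeq2 1.42.0, other scalings and filters, the replicate block, paired ratios and leaving out each library or hairpin. The tests were checked on simulated data. Counts carry no molecular identifiers, so intervals cover counting error only. The precision of each value is limited by 3 libraries per group.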

Additional observations from a re-analysis of the deposited data

How the results depend on the processing

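The mean log2 fold change of FBXO11 stayed positive under all alternatives run, from 0.73 without the strongest hairpin to 1.40 in paired ratios of CPM with a pseudocount of 0.5 (1.38 with a pseudocount of 1). With the replicate block it was 1.19. Scaling by library totals moved the median of all hairpins from -0.096 to 0.067 and the FBXO11 mean to 1.06, so that the distance from the median was 0.99 in both. Without single libraries the mean was 0.84 to 1.26. The number of positive hairpins was 7 throughout, except 8 without untreated replicate 3, where FBXO11.2252 turned to 0.35.

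In the pool, edgeR called 1 to 3 hairpins lower and 0 to 2 higher without single libraries and 2 higher with library totals. The replicate block called 3 lower and 1 higher. The DESeq2 Wald test called 76 lower and 59 higher, and 6 in the lists of related genes, where edgeR called 0 under all its alternatives. With Spearman's coefficient 2 of the 5 genes with the most similar profile remained, and with library totals 5. The cause of these differences was not tested. The averaging of FBXO11.1916 with FBXO11.1917 (0.83) and the mean without FBXO11.1347 and FBXO11.248 (0.84) were chosen after seeing the data.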
